A study of Mus musculus with 4 samples.

Results

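The nuclear genes for subunits of the 5 complexes of mitochondrial oxidative phosphorylation were examined in HT22 cells, an immortalised mouse hippocampal line, with and without added MEIS2, a TALE-class homeodomain protein that binds DNA. Members were the protein-coding rows of the count table whose symbols follow the subunit naming of NADH dehydrogenase (Ndufa, Ndufb, Ndufc, Ndufs or Ndufv and a digit), succinate dehydrogenase (Sdha to Sdhd), the cytochrome bc1 complex (Uqcr), cytochrome c oxidase (Cox4 to Cox8) or ATP synthase (Atp5), with pseudogene names left out. The rule found 87 of 56748 rows: 37 of complex I, 4 of complex II, 8 of complex III, 20 of complex IV and 18 of complex V. Ndufa4 and its paralogue Ndufa4l2 were placed with complex IV, where the NDUFA4 protein is now assigned.

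The design had 2 groups: a control line (2 libraries) and a line made to overexpress MEIS2 (2 libraries), both derived from HT22 and sequenced from poly(A)-selected RNA. Separate cultures, clonality, vector and promoter are not given in the labels, so p-values measure only how far the sequenced libraries differ, and that difference may be technical. Total counts ranged from 15014017 to 16903967 per library. Levels are CPM, counts relative to the library total, scaled by TMM, which adjusts the library sizes so that most genes have about equal levels, and differences are log2 fold changes of the MEIS2 line over the control line.

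Respiratory complexes I, III and IV pass electrons from NADH to oxygen and pump protons across the inner mitochondrial membrane, complex II feeds in electrons from succinate without pumping, and complex V uses the proton gradient to make ATP. All subunits of complex II are encoded in the nucleus, while the other complexes also hold subunits made from mitochondrial DNA, so that the products of both genomes have to be assembled together. Neurons depend heavily on this pathway, and the nuclear genes are known targets of the transcription factors NRF1, GABPA and YY1 and of the PGC-1 coactivators.

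Promoter windows from 250 bases before to 50 bases after the annotated start (RefSeq, GRCm38.p6) were found for 69 of the 87 members, 74 windows in all. Each window was searched on both strands for short strings: NRF1 as GCATGCGC, GABPA as CCGGAAG, YY1 as AAGATGG, SP1 as GGGCGG, MEIS as TGACAG and MEIS with PBX as TGATTGACA; the last may overlap the MEIS string, and the NRF1 string can overlap its own reverse complement. Shown are the windows of Cox6a1, the subunit gene with the highest level per length, of Ndufa11, which had the lowest fitted fold change, of Sdhb, the only matched member with the MEIS with PBX string, and of Sdha, a neighbour in the same complex whose levels were nearly equal in all libraries. These 4 were chosen after their values were seen. Capitals mark matches to the NRF1, GABPA, MEIS and MEIS with PBX strings on either strand, and the 2 SP1 matches of Cox6a1 and 3 of Sdhb are left in lower case. The Cox6a1 window is chr5:115348909-115349208 on the minus strand, that of Ndufa11 is chr17:56717512-56717811 on the plus strand, that of Sdhb is chr4:140961021-140961320 on the plus strand and that of Sdha is chr13:74350191-74350490 on the minus strand.
Cox6a1: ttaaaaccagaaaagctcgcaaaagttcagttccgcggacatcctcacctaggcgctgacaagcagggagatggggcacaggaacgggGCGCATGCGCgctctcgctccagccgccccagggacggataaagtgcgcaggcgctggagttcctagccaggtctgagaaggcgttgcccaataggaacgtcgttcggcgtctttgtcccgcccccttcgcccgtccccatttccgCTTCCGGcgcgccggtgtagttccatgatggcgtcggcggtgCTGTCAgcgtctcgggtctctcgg
Ndufa11: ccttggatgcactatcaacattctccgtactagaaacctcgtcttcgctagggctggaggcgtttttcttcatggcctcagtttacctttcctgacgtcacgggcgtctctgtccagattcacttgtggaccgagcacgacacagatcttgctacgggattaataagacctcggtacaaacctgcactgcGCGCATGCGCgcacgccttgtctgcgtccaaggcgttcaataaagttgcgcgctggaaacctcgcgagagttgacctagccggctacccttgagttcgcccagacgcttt
Sdhb: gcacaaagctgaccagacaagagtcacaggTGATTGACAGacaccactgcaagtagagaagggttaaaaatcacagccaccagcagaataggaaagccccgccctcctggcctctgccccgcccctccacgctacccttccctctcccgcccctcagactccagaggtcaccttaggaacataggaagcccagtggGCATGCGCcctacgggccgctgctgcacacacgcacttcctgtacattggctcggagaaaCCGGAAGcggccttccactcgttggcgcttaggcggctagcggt
Sdha: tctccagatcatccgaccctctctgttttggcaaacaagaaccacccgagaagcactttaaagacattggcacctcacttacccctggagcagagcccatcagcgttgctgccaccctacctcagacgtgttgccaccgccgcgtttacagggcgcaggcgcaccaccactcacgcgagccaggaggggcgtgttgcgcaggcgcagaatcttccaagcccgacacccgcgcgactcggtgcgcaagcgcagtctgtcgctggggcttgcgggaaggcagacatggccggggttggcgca

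The Cox6a1 and Ndufa11 windows each held the NRF1 string on both strands of 1 overlapping stretch, Cox6a1 also held 1 GABPA and 1 MEIS string, and none of the 6 strings was found in the Sdha window. Over the member windows, the NRF1 string was present in 13.5%, against 3.51% of 21262 windows of coding genes. The GABPA string was present in 23.0% against 11.6%, and the YY1 string in 14.9% against 6.24%. For SP1 the shares were 39.2% and 46.2%, for MEIS 21.6% and 18.7%, and for MEIS with PBX 1.35% and 0.447%. A match describes the letters only, and these shares were not tested. The median log2 fold change was -0.47 for the 10 tested members with the NRF1 string and -0.52 for the 56 without, -0.51 for the 17 with the GABPA string and -0.52 for the 49 without. It was -0.54 for the 11 with the YY1 string and -0.51 for the 55 without, and -0.45 for the 26 with the SP1 string and -0.52 for the 40 without. For the 13 with the MEIS string it was -0.53, and -0.51 for the 53 without.

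The libraries carried their labels' MEIS2 difference, and MEIS2 replicate 2 lay at 1 end of the range for several other RNAs. Meis2 was at 16.0 and 19.6 CPM in the controls and at 332.0 and 332.1 CPM in the MEIS2 line, a log2 fold change of 4.22 ± 0.34 (SE; edgeR quasi-likelihood test, adjusted p = 6.41e-05). Of 15 neuron markers, 10 had 0 counts in all libraries, among them Rbfox3, Snap25, Nefl and Stmn2, while Tubb3 and Map2 were detected, so the neuronal label rests on few markers here; the summed level of the list was 25.4 to 31.3 CPM. The fibroblast list (Col1a1, Col1a2, Col3a1, Pdgfra, Dcn and Lum, with Lum at 0) summed to 460 and 436 CPM in the controls and 514 and 691 CPM in the MEIS2 line. Astrocyte and endothelium lists summed to under 1 CPM in each library, the oligodendrocyte list to 13.8 to 29.5 CPM (nearly all Cnp), the microglia list to 19.3 to 35.1 CPM (nearly all Tmem119) and the striated muscle list to 4.11 to 6.39 CPM. Mitochondrially encoded mRNAs held 0.655% and 0.909% of the control counts and 0.918% and 1.27% of the MEIS2 counts. The row Rn18s-rs5, read here for 18S rRNA, held 0.777%, 0.853%, 0.783% and 1.20% in the same order. MEIS2 replicate 2 was thus the highest library in fibroblast, mitochondrial and 18S RNA, and it was the lowest in the subunit genes described next. Control replicate 1 was the lowest library in mitochondrial and 18S RNA and the highest in the subunit genes. The part of these differences in the results was not tested.

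Summed over the 80 members with enough counts to be tested, the subunit mRNAs stood at 18661 CPM in control replicate 1, 14734 CPM in control replicate 2, 14617 CPM in MEIS2 replicate 1 and 9235 CPM in MEIS2 replicate 2. Control replicate 2 and MEIS2 replicate 1 were nearly equal, with a ratio of 1.01, whereas the libraries of the control line differed by a ratio of 1.27 and those of the MEIS2 line by a ratio of 1.58. The difference between the lines was therefore carried by 1 high control library and 1 low MEIS2 library, and it was no larger than the spread within the MEIS2 line. A lower level in every cell and a smaller share of cells with a high level cannot be told apart in bulk RNA.

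**Figure D1:**
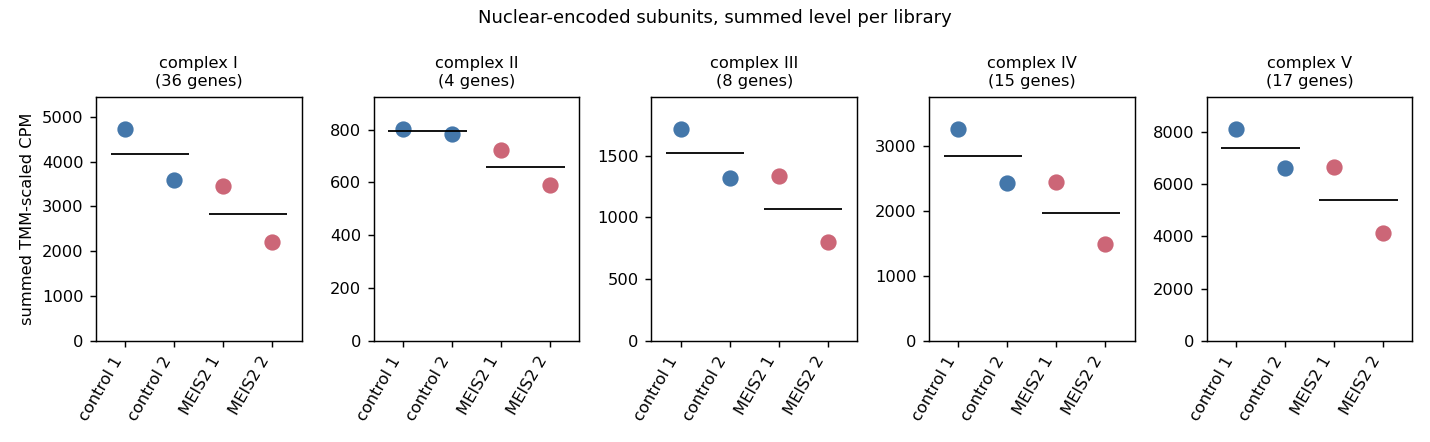
Summed TMM-scaled CPM of the nuclear subunit genes of each complex (vertical axes, from 0) in the 2 control libraries (blue) and the 2 MEIS2 libraries (red), with a horizontal line at the mean of each line. In complexes III, IV and V control replicate 2 and MEIS2 replicate 1 lie side by side, at 1322 and 1334 CPM in complex III, and MEIS2 replicate 2 is the lowest library in every panel.

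None of the 80 tested members passed an adjusted p of 0.05 in edgeR, DESeq2 or limma-voom. In edgeR 0.00781% of all 12802 genes passed, which was Meis2 alone, and in DESeq2 0.00781% were lower and 0.539% higher. DESeq2 gave no adjusted p for Ndufb2, Cox6a2, Cox7a1 and Ndufa4l2, and its shares count genes without one as not passing. At an unadjusted p under 0.05, edgeR gave 1 member with a lower level, Ndufa11, and none with a higher one, against 0.414% of all genes lower and 9.79% higher. Adjusted p-values of the members (edgeR) ran from 0.487 to 0.998. Still, 75 of the 80 members had a lower fitted level in the MEIS2 line, where 49.1% of all genes did. Their median log2 fold change was -0.49 (quartiles -0.59 and -0.36), a 1.40-fold lower level, beside 0.01 for all genes and a median SE of 0.34 per member.

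In 47 members both MEIS2 libraries lay below both controls, which held for 19.1% of all genes, and in no member did both lie above both controls, which held for 22.6% of all genes. The separation was narrow: the median gap between the lower control and the higher MEIS2 library was 0.087 on the log2 scale, 37 of the 47 gaps were under 0.2, a limit chosen after the values were seen, and the widest was 0.495, for the complex I accessory subunit gene Ndufb3. Ndufb3 measured 40.6 and 37.3 CPM in the controls and 26.5 and 22.1 CPM in the MEIS2 line, a log2 fold change of -0.68 ± 0.34 (SE; edgeR, adjusted p = 0.527).

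**Figure D2:**
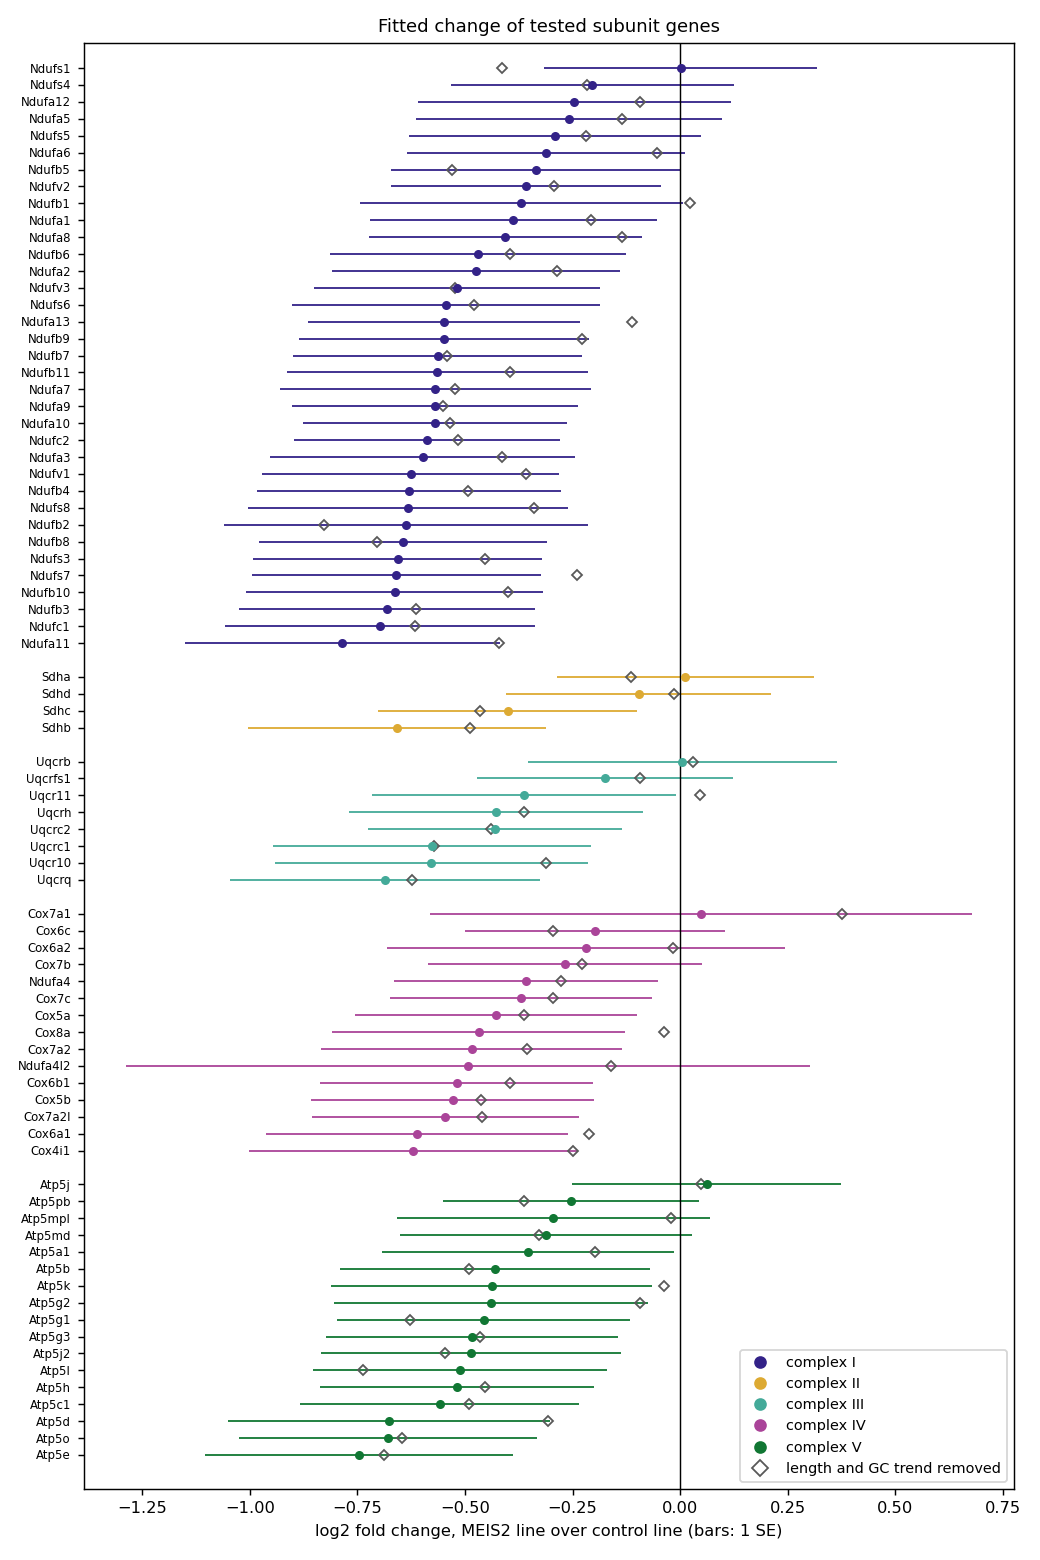
Fitted log2 fold change of the MEIS2 line over the control line (horizontal axis, log2) for 79 of the 80 tested subunit genes, grouped by complex, with bars of 1 SE and open diamonds for the fit without the per-library trend on length and GC. The filled points run from -0.78 (Ndufa11) to 0.06 (Atp5j), and 72 of the 79 lie left of 0 in both fits.

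The same ordering of the libraries ran through most members. Control replicate 1 was the highest library for 65 members, MEIS2 replicate 2 was the lowest for 74, and both held for 64. Relative to a gene's own mean, the median member stood at 0.44, 0.08, 0.05 and -0.59 log2 units in the 2 control and then the 2 MEIS2 libraries. The median difference was -0.36 between control replicate 2 and control replicate 1, -0.63 between MEIS2 replicate 2 and MEIS2 replicate 1, and -0.05 between MEIS2 replicate 1 and control replicate 2. Within a line, 67 members were lower in control replicate 2 than in control replicate 1 and 74 were lower in MEIS2 replicate 2 than in MEIS2 replicate 1.

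**Figure D3:**
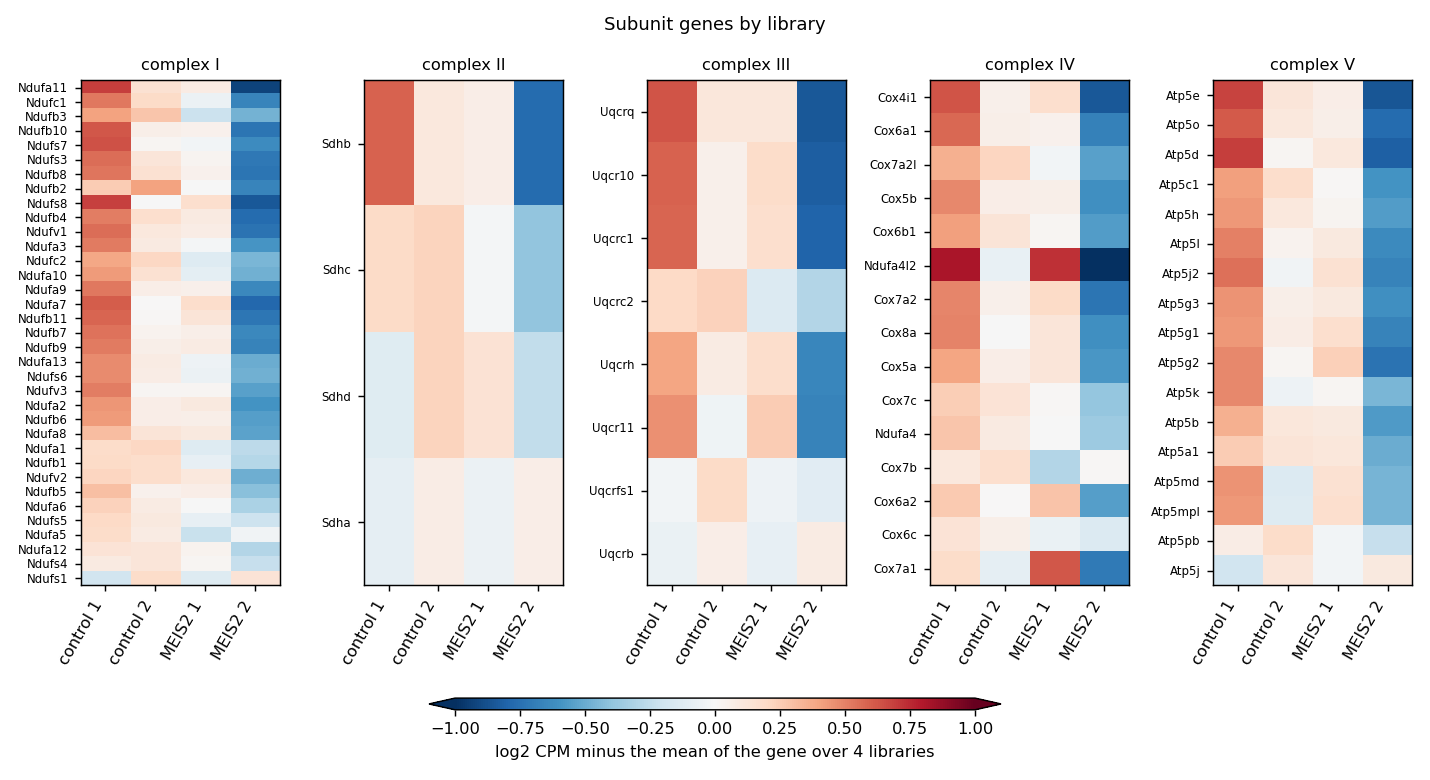
Deviation of 79 tested subunit genes from their own means over the 4 libraries (colour, log2 CPM, limited to -1 and 1, beyond which colours do not deepen) in each library, by complex. The median deviation of all members is 0.44 in control 1 and -0.59 in MEIS2 2, with control 2 (0.08) and MEIS2 1 (0.05) close to the mean; Ndufa4l2 in MEIS2 2 lies beyond the colour range.

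Leaving out single libraries moved the size of the difference but not its sign. The median log2 fold change was -0.30 and -0.68 when control replicate 1 or 2 was left out, and -0.87 and -0.26 when MEIS2 replicate 1 or 2 was. Without MEIS2 replicate 1, 19 members were called lower (edgeR, adjusted p under 0.05), against 3.8% of all genes, with the lone MEIS2 library assumed to vary like the controls; without any other single library none was. A fit with the replicate number as a block, which the labels do not call a pairing, called 40 members lower against 7.12% of all genes. These 19 were 11 of complex I, 1 of complex II, 3 of complex III, 1 of complex IV and 3 of complex V. With a smooth trend on length and GC removed per library, 75 of 80 members were lower, where 55.3% of all genes were, and 73 were lower in both fits: Ndufb1 and Uqcr11 turned higher (0.02 and 0.05), and Ndufs1 and Sdha turned lower. The median of the members was then -0.36, beside -0.05 for all genes, with a lowest adjusted p of 0.379 (edgeR). By complex it was -0.41 for I, -0.29 for II, -0.34 for III, -0.28 for IV and -0.45 for V. Orders of genes or complexes by fold change given here are those of the edgeR test with TMM. They differed in the fit without the trend, where Ndufb2 was the lowest member (-0.83) and Cox7a1 the highest (0.38). Over the members gene length had a Spearman correlation of -0.01 with the log2 fold change and -0.50 with its value without the trend. For GC content these were -0.29 and 0.36. Over all tested genes with a known GC content they were 0.50 and 0.04 for length and -0.42 and -0.03 for GC. The trend was fitted to all tested genes, and after its removal the members were related to length.

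Scaling by library size alone moved the median of all genes to 0.17 and that of the members to -0.34. Relative to the median of all genes, the members stood at -0.50 under TMM, -0.51 under library size alone, -0.51 under the size factors of DESeq2 and -0.50 under upper quartile scaling. Between 74 and 79 of the 80 members were lower under these scalings.

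Complex I, the NADH dehydrogenase, gave the most members. Its median was the lowest of the 5 under TMM, but not without MEIS2 replicate 1, where complexes III (-0.92) and V (-0.90) lay below it (-0.87), nor without the length and GC trend. Of its 36 tested genes 35 had a lower fitted level, 27 had both MEIS2 libraries below both controls (19.1% of all genes did), none passed the test, and the median log2 fold change was -0.56. Its summed level was 4739 and 3600 CPM in the controls and 3462 and 2206 CPM in the MEIS2 line. MEIS2 replicate 1 lay just under control replicate 2, and the control libraries were farther apart than these were.

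The 7 nuclear-encoded core subunits, among them those that carry flavin and iron-sulfur clusters, had a median log2 fold change of -0.63, with 6 lower; the median was -0.36 without the length and GC trend, and from -1.10 to -0.33 when single libraries were left out. Ndufv1, the flavin-binding NADH-oxidising subunit, measured 401.1 and 293.8 CPM in the controls and 286.5 and 163.8 CPM in the MEIS2 line, and its lines did not overlap (-0.63 ± 0.35, edgeR, adjusted p = 0.569).

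Ndufs1, the largest subunit and holder of iron-sulfur clusters, was the exception among the core genes. It measured 55.1 and 71.5 CPM in the controls and 57.5 and 69.3 CPM in the MEIS2 line. Replicate 2 was the higher library in both lines and the lines overlapped, with a log2 fold change of 0.00 ± 0.32 (SE; edgeR, adjusted p = 0.998). Its deposited gene length, 8086 bases, was far above the member median of 1578 bases. After removal of the length and GC trend its value was -0.41 (edgeR, adjusted p = 0.394). The part of length in its values was not tested.

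All 29 tested accessory subunits, which surround and stabilise the core, were lower in the fit, with a median log2 fold change of -0.55. Ndufa11, a membrane arm subunit on chromosome 17, measured 132.9 and 91.2 CPM in the controls and 86.9 and 43.2 CPM in the MEIS2 line. Its lines did not overlap, and MEIS2 replicate 2 was well below the other libraries. The log2 fold change was -0.78 ± 0.37 (SE; edgeR, adjusted p = 0.487), while the fit without the length and GC trend gave -0.42 (adjusted p = 0.398).

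Ndufb11, the X-linked membrane arm gene with the highest level per length in complex I (172.9 CPM per kilobase), measured 223.6 and 150.9 CPM in the controls and 162.9 and 90.4 CPM in the MEIS2 line. Here MEIS2 replicate 1 was above control replicate 2, so the lines overlapped (-0.56 ± 0.35, edgeR, adjusted p = 0.596). A row with the related symbol Ndufb11b had 0 counts in all libraries. Ndufa12, an accessory subunit of the matrix arm, measured 21.5 and 21.3 CPM in the controls and 20.1 and 16.0 CPM in the MEIS2 line, but 78.0% of the reads of the gene and its near-identical copies were counted on copies, chiefly Ndufa12-ps. With those reads added its log2 fold change went from -0.25 to -0.39.

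Complex II, succinate dehydrogenase, held genes of differing pattern. Its summed level was 804 and 784 CPM in the controls and 724 and 591 CPM in the MEIS2 line. The median log2 fold change was -0.25, and 3 of 4 genes were lower with none past the test. The sums of the controls were close together here, but single genes differed in opposite directions. Sdhb was higher in control replicate 1, and Sdha, Sdhc and Sdhd were higher in control replicate 2. In the sum MEIS2 replicate 2 was the lowest library.

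The catalytic pair showed different patterns. Sdha, the flavoprotein that oxidises succinate, measured 238.6 and 266.8 CPM in the controls and 243.7 and 265.9 CPM in the MEIS2 line, with the lines overlapping and replicate 2 the higher library in both (0.01 ± 0.30, edgeR, adjusted p = 0.990). Sdhb, the iron-sulfur subunit that takes the electrons onward, measured 297.1 and 212.9 CPM in the controls and 207.2 and 116.0 CPM in the MEIS2 line. Control replicate 2 and MEIS2 replicate 1 were nearly level, and the log2 fold change was -0.66 ± 0.35 (SE; edgeR, adjusted p = 0.555). A test of the difference between Sdha and Sdhb was not run.

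Of the membrane anchors that hold heme and the quinone site, Sdhc measured 146.0 and 149.2 CPM in the controls and 126.3 and 97.3 CPM in the MEIS2 line, with no overlap (-0.40 ± 0.30, edgeR, adjusted p = 0.613). Sdhd, the highest gene of the complex per length (109 CPM per kilobase), measured 122.4 and 154.9 CPM in the controls and 147.2 and 112.2 CPM in the MEIS2 line. The lines overlapped, the log2 fold change was -0.10 ± 0.31 (adjusted p = 0.905), and it became 0.04 with library size alone as the scaling.

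Complex III, the cytochrome bc1 complex, had 7 of 8 genes lower, 3 of them without overlap (19.1% of all genes lay so), and a median log2 fold change of -0.43. Uqcrq, the small ubiquinone-binding subunit gene, measured 355.5 and 248.2 CPM in the controls and 248.0 and 127.5 CPM in the MEIS2 line. Control replicate 2 and MEIS2 replicate 1 were level, and the log2 fold change was -0.69 ± 0.36 (SE; edgeR, adjusted p = 0.555). Uqcr10, highest of the complex per length (175 CPM per kilobase), measured 145.1 and 99.8 CPM against 109.6 and 54.4 CPM, so that its lines overlapped (-0.58 ± 0.36, adjusted p = 0.596; -0.31 without the length and GC trend).

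The catalytic Rieske iron-sulfur protein gene Uqcrfs1 measured 97.3 and 113.2 CPM in the controls and 95.3 and 91.2 CPM in the MEIS2 line, a small difference of -0.17 ± 0.30 (SE; edgeR, adjusted p = 0.811). The core protein genes differed in pattern: Uqcrc1 measured 680.4 and 470.6 CPM against 511.4 and 260.6 CPM and overlapped, while Uqcrc2 measured 193.5 and 197.7 CPM against 153.1 and 137.4 CPM and did not. Uqcrb, another small subunit gene, was at 19.4 and 21.3 CPM in the controls and at 19.3 and 21.6 CPM in the MEIS2 line, with replicate 2 the higher library in both lines (0.01 ± 0.36, adjusted p = 0.996).

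Complex IV, cytochrome c oxidase, had 15 of 20 genes tested, 14 of them lower and 8 without overlap (19.1% of all genes lay so). The median log2 fold change was -0.47, and -0.28 without the length and GC trend. The genes that were not tested were tissue-restricted isoforms: Cox6b2, Cox7b2, Cox8b and Cox8c had 0 counts in all libraries, and Cox4i2 had 1 count in each replicate 2 and none in each replicate 1. Floors of 3 counts, worth 0.177 to 0.2 CPM, apply to them and cover counting error only. The widely expressed forms Cox4i1, Cox6a1, Cox6b1, Cox7a2, Cox7b and Cox8a were detected in all libraries.

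Cox6a1, on chromosome 5, was the highest of all 80 members per length (749 CPM per kilobase, against a member median of 63.2). Its levels were 747.9 and 523.2 CPM in the controls and 518.5 and 313.6 CPM in the MEIS2 line, so the lines did not overlap but met closely (-0.61 ± 0.35, edgeR, adjusted p = 0.578); without the length and GC trend the value was -0.21. Cox4i1, the regulatory subunit that contacts the catalytic core, measured 1013 and 680.1 CPM against 737.6 and 363.9 CPM. MEIS2 replicate 1 lay above control replicate 2, and the log2 fold change was -0.62 ± 0.38 (SE; edgeR, adjusted p = 0.595), the lowest of the complex. Without the length and GC trend it was -0.25, and that of Cox5b was the lowest at -0.46.

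Among the other widely expressed forms, Cox6b1 measured 158.2 and 129.8 CPM against 120.4 and 80.6 CPM without overlap (-0.52), and Cox8a 382.2 and 269.8 CPM against 294.0 and 177.4 CPM with overlap (-0.47, and -0.04 without the length and GC trend). Cox7a2 measured 152.7 and 112.9 CPM against 124.2 and 65.6 CPM, with overlap (-0.48). Cox7a2l, a relative that takes part in supercomplex assembly, measured 175.9 and 159.6 CPM against 135.1 and 94.6 CPM without overlap (-0.55). None of these passed the test.

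Cox6c and Cox7b, small structural subunit genes, had fold changes nearer to 0 than the complex median. Cox6c measured 76.9 and 72.9 CPM in the controls and 66.9 and 63.7 CPM in the MEIS2 line (-0.20 ± 0.30, edgeR, adjusted p = 0.791). Cox7b, X-linked, measured 59.8 and 62.5 CPM against 45.4 and 56.1 CPM, with MEIS2 replicate 2 the higher of its line (-0.27 ± 0.32, adjusted p = 0.735). In both genes the lines did not overlap. Ndufa4 measured 104.7 and 91.6 CPM against 86.2 and 66.9 CPM, also without overlap (-0.36).

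The heart and muscle isoforms were present at low levels. Cox6a2 measured 5.54 and 4.62 CPM in the controls and 5.64 and 3.10 CPM in the MEIS2 line, and Cox7a1 measured 1.43 and 1.17 CPM against 1.99 and 0.715 CPM. Both overlapped between the lines. Per length, Cox6a1 exceeded Cox6a2 by a ratio of 130.8 and 109.8 for the control line against 89.1 and 98.0 for the MEIS2 line, and Cox7a2 exceeded Cox7a1 by 60.4 and 54.7 against 35.4 and 52.0. Ndufa4l2, a hypoxia-inducible paralogue of Ndufa4, had 21 and 11 counts in the control libraries against 20 and 3 in the others, too few for its ratio to Ndufa4 to be read.

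Complex V, the ATP synthase, had the highest summed CPM of these complexes, while the highest gene per length was Cox6a1 of complex IV. Of 17 tested genes 16 were lower, 7 without overlap (19.1% of all genes lay so) and none past the test, with a median log2 fold change of -0.46. The summed level was 8129 and 6602 CPM in the controls and 6646 and 4144 CPM in the MEIS2 line, with MEIS2 replicate 1 just above control replicate 2.

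In the catalytic F1 head all 5 genes were lower, with a median of -0.56. Atp5b, the catalytic beta subunit and the highest gene of the complex per length (584 CPM per kilobase), measured 3076 and 2606 CPM in the controls and 2586 and 1628 CPM in the MEIS2 line. The middle pair of libraries was level again, and the log2 fold change was -0.43 ± 0.36 (SE; edgeR, adjusted p = 0.641). Atp5e, the small epsilon subunit of the central stalk, measured 153.7 and 104.6 CPM against 100.9 and 53.1 CPM. It had the lowest log2 fold change of the complex, -0.75 ± 0.36 (SE; edgeR, adjusted p = 0.497), and its lines did not overlap.

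The c ring, the membrane rotor, is encoded by 3 genes whose mature proteins are identical and whose targeting sequences differ. Atp5g2 measured 589.1 and 427.4 CPM in the controls and 497.9 and 252.0 CPM in the MEIS2 line, Atp5g3 520.8 and 397.7 CPM against 407.6 and 249.1 CPM, and Atp5g1 232.3 and 181.3 CPM against 193.2 and 108.2 CPM. All 3 overlapped between the lines, with log2 fold changes from -0.48 to -0.44; without the length and GC trend that of Atp5g2 was -0.09. Their proportions per length were steady: Atp5g2 made up 52.5% to 56.8% of the 3, Atp5g3 35.7% to 39.8% and Atp5g1 7.42% to 7.78% over the 4 libraries. The proportions rest on the deposited gene lengths, 4912 bases for Atp5g1 against 1675 for Atp5g2 and 2181 for Atp5g3. Such lengths understate genes with long rare transcripts, and the part of length in the low share of Atp5g1 was not tested. Reads counted on near-identical copies are not in these proportions. Copies held 23.7% of the reads of Atp5g1 and its copies, 5.06% for Atp5g2 and 0% for Atp5g3.

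The peripheral stalk, which holds the head still, was mixed. Atp5o, the OSCP subunit that joins the stalk to the head, measured 255.2 and 179.5 CPM in the controls and 173.8 and 97.9 CPM in the MEIS2 line without overlap (-0.68 ± 0.35, edgeR, adjusted p = 0.537); a second row with the same symbol had 0 counts in all libraries. Atp5j, coupling factor 6, measured 55.5 and 68.8 CPM against 62.0 and 67.7 CPM, with overlap and the highest log2 fold change of all members, 0.06 ± 0.31 (adjusted p = 0.944). Atp5pb, the b subunit, measured 241.0 and 258.9 CPM against 224.6 and 194.8 CPM without overlap (-0.25 ± 0.30, adjusted p = 0.733). The 5 small membrane subunits Atp5j2, Atp5k, Atp5l, Atp5md and Atp5mpl were all lower in the fit, and all 5 overlapped between the lines; without control replicate 1, 3 of the 5 were lower and Atp5md and Atp5mpl were at 0.00.

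**Figure D4:**
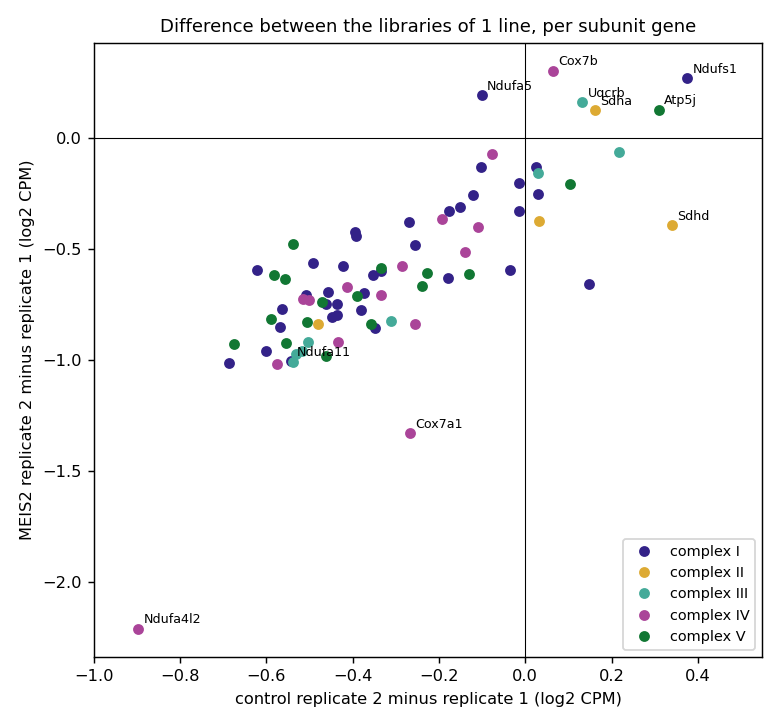
Difference between the libraries of a line for each tested subunit gene, replicate 2 minus replicate 1 (log2 CPM), in the control line (horizontal axis) and the MEIS2 line (vertical axis), coloured by complex. Most points lie at lower left, with medians of -0.36 and -0.63, and Ndufs1, Sdha, Uqcrb, Cox7b and Atp5j lie above 0 on both axes.

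Few members departed from the common order. In 6 members MEIS2 replicate 2 was above MEIS2 replicate 1 (Ndufa5, Ndufs1, Sdha, Uqcrb, Cox7b and Atp5j, a list made after the values were seen), and in 5 of these control replicate 2 was also above control replicate 1. Across the 80 members the within-line differences had a Spearman correlation of 0.78, and 0.66 across the 12655 tested genes with a known GC content; genes of a library share its depth and handling, so these are descriptions. GC content had a Spearman correlation of -0.53 with the control difference and -0.48 with the MEIS2 difference over the members, and gene length 0.10 and 0.06. Across those 12655 genes the values were -0.53 and -0.64 for GC content and 0.32 and 0.43 for gene length, so the GC relation was not particular to the members. In the same 4 libraries, where the median member deviations were 0.44, 0.08, 0.05 and -0.59, the fitted trend on length and GC stood at a member median of 0.04, 0.05, 0.07 and -0.14.

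Taken as a sum, the 13 mRNAs of the mitochondrial genome, which encode the remaining subunits, ran opposite to the nuclear ones across the libraries. Their summed level was 7215 and 9204 CPM in the controls and 9235 and 11389 CPM in the MEIS2 line, so the ratio of nuclear to mitochondrial sums was 2.59 and 1.60 for the control line against 1.58 and 0.811 for the MEIS2 line. Again control replicate 2 and MEIS2 replicate 1 were level. Of 12 tested mitochondrial genes 10 were higher in the fit and none passed the test; the median log2 fold change was 0.63. It was 0.28 and 0.80 without control replicate 1 or 2, 1.00 without MEIS2 replicate 1, and 0.14 without MEIS2 replicate 2, where 4 of the 12 were lower. For mt-Nd5, a proton-pumping subunit of complex I, the levels were 224.5 and 346.6 CPM against 471.6 and 771.3 CPM (1.12 ± 0.36, edgeR, adjusted p = 0.279), and mt-Co1, the catalytic oxidase subunit, was the highest per length at 4691 and 6199 CPM against 6309 and 6978 CPM. The lowest p among the 2 lower genes was that of mt-Nd3, at 1.76 and 2.28 CPM against 0.769 and 1.55 CPM. Poly(A) selection captures these short-tailed mRNAs unevenly, so their levels are those of the selected RNA.

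**Figure D5:**
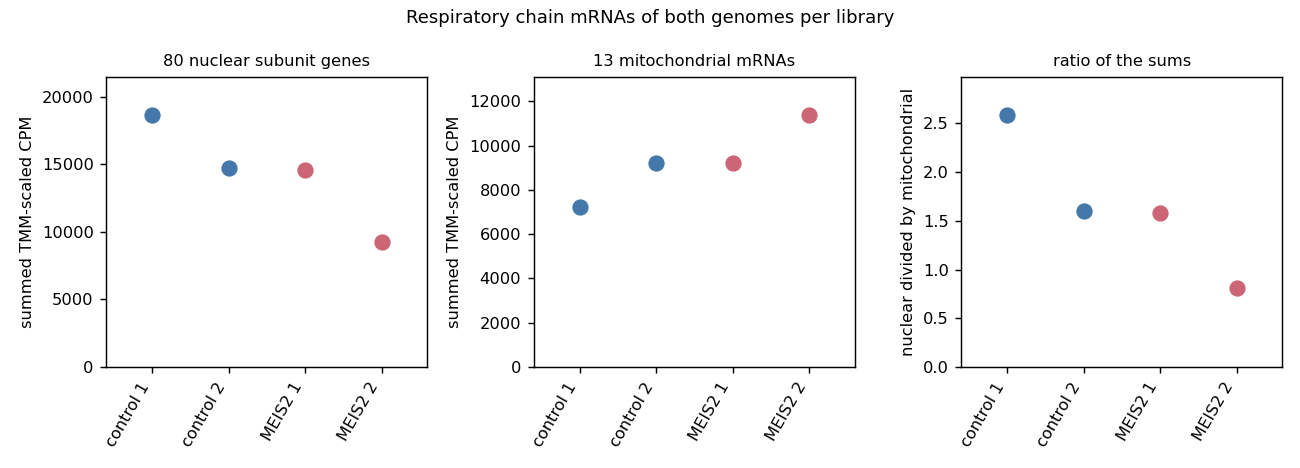
Summed TMM-scaled CPM of the 80 nuclear subunit genes (left), of the 13 mitochondrial mRNAs (middle) and their ratio (right) in each library, vertical axes from 0. The ratio is 2.59 in control 1, 1.60 in control 2, 1.58 in MEIS2 1 and 0.811 in MEIS2 2.

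Genes that serve the complexes without being subunits by name were read from lists, and 0 of each list passed the test in either direction. Of 15 complex I assembly factors 12 were lower (median log2 fold change -0.25), of 4 for complex II 4 (-0.18), of 6 for complex III 4 (-0.36), of 22 for complex IV 16 (-0.24) and of 4 for complex V 2 (-0.08). Among 17 electron carrier and ubiquinone synthesis genes 12 were lower (-0.22), and among 13 citric acid cycle genes 11 (-0.30). Cyc1, the cytochrome c1 subunit of complex III, and Ndufab1, the acyl carrier subunit of complex I, lie outside the naming rule and had log2 fold changes of -0.50 and -0.53. When single libraries were left out, the medians ran from -0.49 to -0.25 for complex I factors, -0.41 to -0.02 for complex II (2 of 4 lower without control replicate 2), -0.62 to -0.16 for complex III, -0.48 to -0.13 for complex IV and -0.19 to -0.12 for complex V. They ran from -0.39 to -0.15 for electron carriers and from -0.48 to -0.24 for the citric acid cycle, and the values for Cyc1 from -0.999 to -0.195 and for Ndufab1 from -0.80 to -0.35.

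The genes of these lists with the lowest p in either direction were spread over roles. Coa4, a complex IV assembly factor, measured 13.1 and 9.97 CPM in the controls and 5.70 and 4.59 CPM in the MEIS2 line, with no overlap (-1.16 ± 0.42, edgeR, adjusted p = 0.313). Lrpprc, which stabilises mitochondrial mRNAs, measured 45.6 and 63.1 CPM against 66.6 and 115.4 CPM (0.74, adjusted p = 0.489). Fmc1, a complex V assembly factor, measured 41.1 and 26.2 CPM against 24.7 and 13.1 CPM (-0.83, adjusted p = 0.504). The complex I factor Ndufaf5 was at -0.76, the complex III factor Uqcc3 at -0.60, the cycle enzyme gene Idh3g at -0.57 and the ubiquinone synthesis gene Coq4 at -0.61. Highest per length in their lists were Timmdc1, Sdhaf4, Uqcc2, Coa3, Fmc1, Coq9 and Mdh2, with log2 fold changes of -0.25, -0.20, -0.58, -0.64, -0.83, -0.39 and -0.48. The lowest p among the higher genes of the other lists was that of Ndufaf4 (0.13), Ttc19 (0.36), Atpaf1 (0.18), Etfa (0.24) and Dld (0.30), and among the lower complex II factors that of Sdhaf2 (-0.36).

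Among 15 tested regulators of respiratory genes 9 were lower, with a median of -0.12. The direction of that median turned without control replicate 2 (0.01, 7 lower), and it was -0.29 without MEIS2 replicate 2. With the length and GC trend removed it was -0.38. Yy1 measured 47.8 and 60.3 CPM in the controls and 85.7 and 123.1 CPM in the MEIS2 line, without overlap (0.95 ± 0.32, edgeR, adjusted p = 0.297). Nrf1 measured 49.2 and 61.9 CPM against 54.5 and 51.2 CPM, with overlap, and Pprc1, highest of the list per length, 135.9 and 142.1 CPM against 150.1 and 144.2 CPM. Ppargc1a, the PGC-1 alpha gene, was at 1.11 and 0.554 CPM against 0.577 and 0.715 CPM. The mitochondrial RNA polymerase gene Polrmt had the lowest p of the lower genes, with a log2 fold change of -0.44 (adjusted p = 0.610).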

How the data were processed

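Poly(A)-selected RNA of 2 control and 2 MEIS2-overexpressing HT22 libraries was sequenced. The deposited table holds raw counts, 1 library a column; gene ID, symbol, position, length and biotype stand beside them, per the file headers. Per the submitters' processing notes DESeq2 was used (version unknown). The sources used here give no aligner, counting program, genome build or strand setting, so reads of overlapping or near-identical genes may have been split or lost.

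Counts were tested in R 4.3.3 with edgeR 4.0.16: filterByExpr by group, TMM, the quasi-likelihood F test on the group term, and Benjamini-Hochberg adjustment over 12802 genes at 0.05. The SE is the size of a log2 fold change divided by the square root of F. The code was tested on simulated data with less spread than these libraries and larger changes than the members showed. That check does not measure the power to detect changes of the members' size. CPM per kilobase uses the deposited gene length. That length covers all exons of a gene, so it understates genes with long rare transcripts. Spread between libraries was large (biological coefficient of variation 27.95%, and chi-square per degree of freedom of 33.6 between controls and 87.3 between MEIS2 libraries), so no libraries were merged. Alternatives were 3 other scalings, no filter and a filter at 5 CPM in 2 libraries, a replicate block, per-library smooths on gene length and GC (mgcv 1.9.3), each library left out, DESeq2 1.42.0, limma-voom (limma 3.58.1), and addition of reads counted on near-identical copies. Copies were found with BLAST+ 2.17.0 against GENCODE transcripts at 90% identity over at least 150 bases and 50% of the copy; 38 members had 96 copies, and in 8 tested members copies held over 10% of the reads. Members, lists and alternatives were chosen with earlier results of these data known. Genes named are, per complex, the highest per length and the lowest and highest log2 fold change, all isoform families and untested members, and per list the highest per length and the lowest p in each direction; further members were named after their values were seen, to show a role. Groups into roles were set while the analysis was written. Lists were matched by symbol, and Coa1 matched no row. The values of 1 tested member enter all counts, sums and medians, and its own result is not reported here.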

Additional observations from a re-analysis of the deposited data

How the results depend on the processing

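The median log2 fold change of the members kept its sign under every alternative run, from -0.866 to -0.256 when single libraries were left out and from -0.548 to -0.344 under the other alternatives. The median of complex IV was -0.276 with the length and GC trend removed. By complex, leaving out single libraries gave -0.867 to -0.312 for I, -0.466 to -0.16 for II, -0.917 to -0.195 for III, -0.856 to -0.225 for IV and -0.903 to -0.194 for V. Calls depended far more on the setting, and the cause was not tested. Genes higher numbered 1 by edgeR, 268 without a filter, 69 by DESeq2, 0 with the length and GC trend removed and 1 to 1902 when libraries were left out; genes lower numbered 0, 3 without a filter, 1 by DESeq2 and 0 to 509. Members lower numbered 0 to 19 when libraries were left out, with 19 without MEIS2 replicate 1.

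Same-numbered libraries deviated together (correlation 0.529), but there are only 2 pairs and the labels do not say that the numbers pair samples. With the replicate number as a block, 1883 genes were higher and 912 lower, and 40 members were lower (22, 1, 3, 6 and 8 in complexes I to V) at a median of -0.519, against 7.12% of all genes.

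Of the 80 tested members, 12 had a reversed sign under some alternative. Ndufb1 was at 0.023 and Uqcr11 at 0.046 with the trend removed. Ndufs1 was at -0.046 (DESeq2 and its size factors), -0.024 (upper quartile), -0.032 (no filter) and -0.414 (trend removed), Sdha at -0.038, -0.014, -0.024 and -0.115 and Uqcrb at -0.046, -0.021 and -0.031 under the first 3. Sdhd was at 0.041 with library size alone. Cox7a1 was at -0.007 with DESeq2 size factors, -0.006 in DESeq2, -0.057 with the replicate block and -0.123 in limma-voom. With single libraries left out, values ran from -0.184 to 0.19 for Ndufs1, -0.091 to 0.085 for Sdha, -0.316 to 0.075 for Sdhd, -0.117 to 0.071 for Uqcrb, -0.727 to 0.108 for Cox6a2, -0.872 to 0.566 for Cox7a1, -2.482 to 0.281 for Ndufa4l2, -0.095 to 0.214 for Atp5j, -0.678 to 0.001 for Atp5md and -0.67 to 0.004 for Atp5mpl.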
